A study of Homo sapiens with 3 samples.

Results

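Of the Notch pathway, 10 listed genes were followed in xenograft tumors of SUM-149 cells under an inhibitor of CDK2 (CDK2i) or of EZH2 (EZH2i). The list is set by gene name and no measured value enters its rule, but it was chosen with earlier results of these data known. The list holds 3 receptor genes (NOTCH1, NOTCH2, NOTCH3), 3 ligand genes (JAG1, JAG2, DLL1) and 4 target genes (HES1, HEY1, HES4, NRARP). All 10 were found among the 29689 gene symbols of the expression table.

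SUM-149 is a triple-negative breast cancer (TNBC) cell line, here grown as tumors in the mammary fat pads of female Nu/Nu mice after the cells had been mixed with Matrigel. Global transcriptomes were measured by RNAseq of total RNA in 3 libraries, to ask how inhibition of CDK2 or of EZH2 alters the expression profile of the tumors. The vehicle tumor received no inhibitor, the CDK2i tumor received dinaciclib for 10 days and the EZH2i tumor received EPZ6438 for 10 days. Dinaciclib blocks CDK2 and several other cyclin-dependent kinases, and EPZ6438 blocks the methyltransferase EZH2. Elsewhere the study names GSK343 as the EZH2 inhibitor given to SUM-149 xenografts, and the name on the sample label is used here. Nude mice lack a thymus and keep other host cells, so the tissue can hold mouse stroma. Each group holds 1 library, and how many tumors went into a library is not given in the sources used here. No difference has a replicate check, and no p-value was computed.

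In Notch signaling, a ligand such as JAG1 on a neighboring cell binds a NOTCH receptor, which is then cut by ADAM proteases and by gamma-secretase. The released intracellular part enters the nucleus and joins the DNA-binding protein RBPJ and a MAML coactivator to switch on targets, among them the HES and HEY repressors. In the mammary gland the pathway is known for its part in cell fate and for its activity in breast cancer, TNBC included.

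RBPJ recognizes a short DNA motif whose core is TGGGAA. This core was searched on both strands in the 250 bases before the start of each gene in the RefSeq promoters of GRCh38.p14. Of the 10 genes 8 were matched, all except DLL1 and HEY1. HES1 held 2 copies, which start 84 and 70 bases before the gene start, and HES4 held 1 copy at 76 bases, all on the strand of the gene. The other 6 matched genes held none in this window. Over all 35116 promoters of this length, 20.9% held at least 1 copy and 2.90% held 2 or more. A match describes letters only and is no evidence of binding, and the lack of a match says nothing about RBPJ. The stretches from 120 bases to 1 base before the start are printed for HES1 and HES4, because their changes with CDK2i differed, with the core in capitals. HES1 lies at chr3:194136028-194136147 on the plus strand, and HES4 at chr1:1000098-1000217 on the minus strand.
HES1: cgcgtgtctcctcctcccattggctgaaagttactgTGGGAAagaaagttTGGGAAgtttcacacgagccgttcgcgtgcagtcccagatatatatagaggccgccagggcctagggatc
HES4: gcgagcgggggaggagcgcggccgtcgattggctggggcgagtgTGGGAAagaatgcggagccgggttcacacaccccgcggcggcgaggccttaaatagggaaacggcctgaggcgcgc

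Expression was given as log2 FPKM, a fragment count divided by gene length and by library size, so levels of different genes can be compared per length. Steps of 1 fragment among weakly expressed genes placed the depth at 16.8 M to 19.2 M fragments per library. From this depth and the transcript lengths of GENCODE 44, the number of fragments behind each value was approximated. Intervals in brackets are 95% intervals of this count (exact Poisson for a level and Clopper-Pearson for a change) and cover counting error only, not the spread between tumors. Fragments are not independent molecules, so even the counting error may be wider. A gene was called higher or lower when its fold change was above 2 and its higher value was above log2 FPKM 3, which is 8 FPKM. Over 11109 expressed genes (mean log2 FPKM above 1 and listed above 0 in every library), the median change against vehicle was −0.11 in CDK2i and 0.19 in EZH2i. Changes of the Notch genes less this median are given where they differ in call. All 8 epithelial markers were above the minimum in each library, from 17.8 FPKM for TP63 to 6269 FPKM for KRT14.

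The Notch genes did not move as a block under either inhibitor. In the CDK2i tumor HES1 and NOTCH3 were called higher and NOTCH1 lower, and in the EZH2i tumor NOTCH2 alone was called higher. In each comparison 8 of the 10 could have been called, while DLL1 and HEY1 lay below the minimum. For CDK2i, 2 of the 10 genes were called higher, against 3.27% of all 6632 genes above the minimum, and 1 was called lower, against 8.07%. For EZH2i, 1 was called higher, against 8.93% of 7414 genes, and none was called lower, against 4.42%. With so few genes these counts are a description of the list. More cells that hold a transcript and more transcript per cell cannot be told apart in whole tumors. The median change of the 9 genes listed above 0 in every library was 0.006 in CDK2i, where 5 were higher and 4 lower, and −0.19 in EZH2i, where 2 were higher and 7 lower. Both comparisons share the vehicle library, so a low or high vehicle value enters both.

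**Figure D1:**
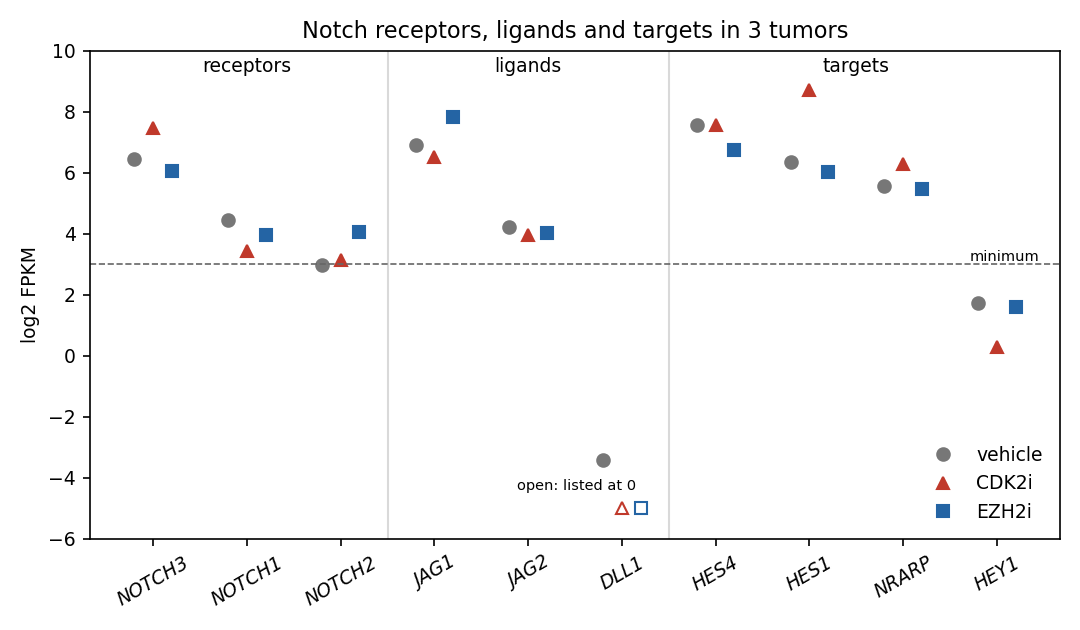
Level in log2 FPKM (y axis) of the 10 Notch genes in the vehicle (circles), CDK2i (triangles) and EZH2i (squares) tumors, 1 library each, with open symbols for a gene listed at 0 and a dashed line at the expression minimum of 3. HES1 in CDK2i, at 8.71, was the highest of all values, and DLL1 and HEY1 stayed below the line in every tumor.

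**Figure D2:**
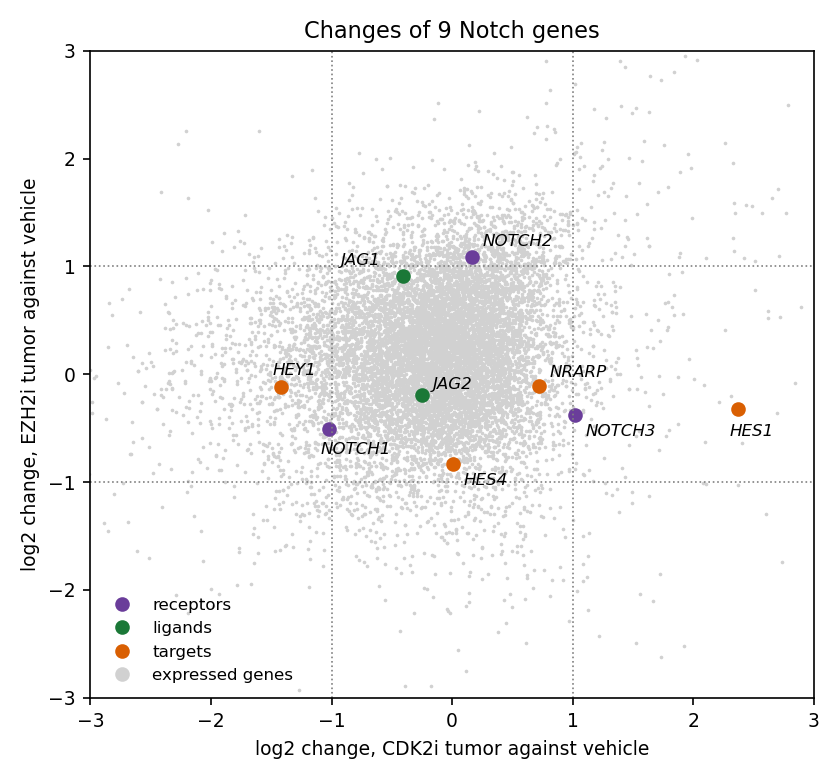
Log2 change in CDK2i (x axis) against log2 change in EZH2i (y axis) for 9 Notch genes (colored by role) and 11052 expressed genes (grey), with dotted lines at 2-fold and 57 expressed genes beyond the axes not drawn. HES1 lies far to the right at 2.37 and −0.32, while NOTCH2 is the only Notch gene above the upper line, at 1.09.

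Among the receptors, NOTCH3 was the leading transcript in each tumor. NOTCH3, the receptor whose mutations cause the small vessel disease CADASIL (chromosome 19, 15269849 to 15311806, minus strand, GRCh37), was at 86.7 FPKM in the vehicle tumor, against 176 in CDK2i and 66.7 in EZH2i, on about 12643, 29246 and 10152 fragments. The CDK2i tumor thus held the most NOTCH3, and the EZH2i tumor the least. The change in CDK2i was 1.02 [0.99 to 1.05] on the log2 scale, a fold of 2.03 that lies just past the threshold, and 2.80% of expressed genes were higher by as much or more. In EZH2i the change was −0.38 [−0.42 to −0.34], short of the threshold.

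NOTCH1 (chromosome 9, 139388885 to 139440500, minus strand), the receptor best known for its mutations in T cell leukemia, was lower in both treated tumors. It was at 21.9 FPKM in vehicle, against 10.8 in CDK2i and 15.4 in EZH2i. The change in CDK2i was −1.02 [−1.10 to −0.94], 2.03-fold lower and just past the threshold, and 10.4% of expressed genes were lower by as much or more. Less the median gene it was −0.91, which is short of 2-fold. In EZH2i the change was −0.51 [−0.58 to −0.44] and was not called.

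NOTCH2 (chromosome 1, 120454176 to 120643366, minus strand), which like JAG1 is mutated in Alagille syndrome, stood at nearly the same level in the vehicle and CDK2i tumors and higher in EZH2i. Its values were 7.76, 8.72 and 16.5 FPKM in vehicle, CDK2i and EZH2i. The vehicle value lay just below the minimum of 8 FPKM. The change in EZH2i was 1.09 [1.00 to 1.18], a fold of 2.13, and 7.79% of expressed genes were higher by as much or more. It was 0.90 less the median gene and 0.72 after removal of the trend of the EZH2i change with GC content and transcript length, both short of 2-fold. The partial copy listed as NOTCH2NL, whose sequence is nearly identical to the start of NOTCH2, was at 0.639, 0.415 and 1.51 FPKM, and reads could have been split between the genes.

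Because 1 scaling factor applies to a whole library, ratios of genes within a library do not depend on the scaling, although the GC and length trend can move them. NOTCH3 was 3.95 times NOTCH1 in the vehicle tumor, 16.3 times in CDK2i and 4.33 times in EZH2i. This ratio thus stood apart in the CDK2i tumor. The ratio of NOTCH3 to NOTCH2 instead differed from vehicle in both treated tumors, in opposite directions. It was 11.2 in vehicle, 20.2 in CDK2i and 4.03 in EZH2i. With the GC and length trend removed it was 18.4 in CDK2i and 5.8 in EZH2i. The ratio of NOTCH2 to NOTCH1 was 0.354 in vehicle, 0.807 in CDK2i and 1.07 in EZH2i, so that NOTCH2 reached the level of NOTCH1 in the EZH2i tumor under the deposited values. With the GC and length trend removed it did not, and the ratio was 0.906 in CDK2i and 0.751 in EZH2i. The ratio of NOTCH3 to NOTCH1 kept its order, at 16.7 in CDK2i and 4.33 in EZH2i. With NOTCH4 (20.5, 11.8 and 13.1 FPKM) included, NOTCH3 made up 63.3% of the summed FPKM of the 4 receptors in vehicle, 84.9% in CDK2i and 59.7% in EZH2i. Thus 1 gene dominated the receptor transcripts throughout, and most in CDK2i. The share of NOTCH1 was 16.0%, 5.21% and 13.8% in the same order. The share of NOTCH2 was 5.67%, 4.21% and 14.8%. The receptor sum itself was 137 FPKM in vehicle, against 207 in CDK2i and 112 in EZH2i, and most of this spread came from NOTCH3.

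**Figure D3:**
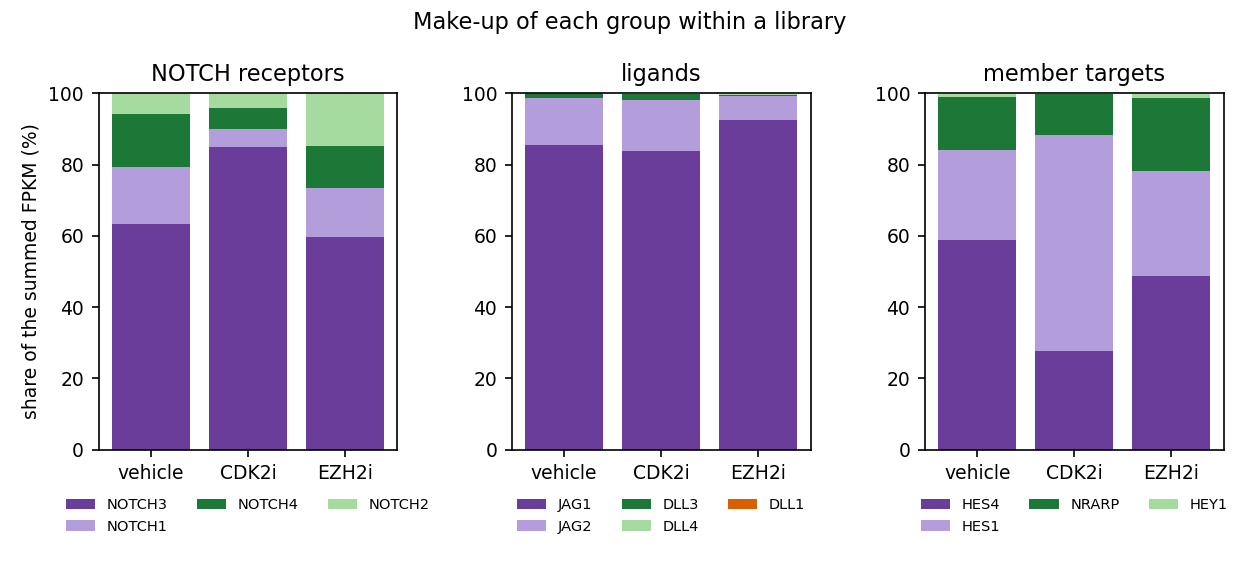
Share of the summed FPKM (y axis, percent) of 4 NOTCH receptors, 5 ligands and 4 target genes in the vehicle, CDK2i and EZH2i tumors, with the genes stacked in color. NOTCH3 takes 84.9% of the receptors and HES1 60.8% of the targets in CDK2i, and JAG1 takes 83.9% to 92.6% of the ligands.

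JAG1 was the main ligand in every tumor. JAG1 (chromosome 20, 10618332 to 10654647, minus strand), which binds the NOTCH receptors on adjacent cells, was at 121 FPKM in vehicle, against 91.3 in CDK2i and 228 in EZH2i. It was thus highest in EZH2i and lowest in CDK2i. The change was −0.40 [−0.44 to −0.37] in CDK2i and 0.91 [0.88 to 0.95] in EZH2i, a fold of 1.88 that falls short of the threshold, with 12.9% of expressed genes higher by as much or more. JAG1 is among 157 symbols that the table lists after the end of its alphabetical order, and whether their values were made in the same way is not given in the sources used here.

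JAG2 (chromosome 14, 105607319 to 105635161, minus strand), a second Jagged ligand, differed little between tumors. It was at 18.4 FPKM in vehicle, against 15.5 in CDK2i and 16.1 in EZH2i, with changes of −0.25 [−0.34 to −0.15] and −0.19 [−0.29 to −0.10]. The EZH2i change turned sign in 2 of 4 other scalings. JAG1 was 6.55 times JAG2 in vehicle, 5.88 times in CDK2i and 14.1 times in EZH2i, a difference in ratio between EZH2i and vehicle of 1.11 on the log2 scale. With the GC and length trend removed, JAG1 was at 0.66 and JAG2 at 0.07 in EZH2i, in the same order. The ratio of JAG1 to NOTCH3 was 1.39 in vehicle, 0.519 in CDK2i and 3.41 in EZH2i, so that receptor exceeded ligand in the CDK2i tumor only.

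DLL1 (chromosome 6, 170591294 to 170615653, minus strand), a Delta-like ligand, was close to absent. About 6 fragments gave 0.0938 FPKM in vehicle, and the gene was listed at 0 in CDK2i and EZH2i. By the upper end of the exact Poisson interval, a count of 0 allows up to 0.0510 FPKM in CDK2i and 0.0557 in EZH2i. The vehicle interval is 0.0347 to 0.206 FPKM, and no fold is given from so few fragments. DLL4, the ligand best known from vessel sprouting, was likewise low, at 0.0535, 0.203 and 0.872 FPKM on about 3, 13 and 52 fragments. Its change in EZH2i was 4.03 [2.43 to 6.38], although the gene stayed below the minimum in all tumors. The Delta-like ligands together made up under 2% of the ligand sum in each tumor, and DLL3 took 1.25%, 1.59% and 0.478%. The ligand sum was 141 FPKM in vehicle, against 109 in CDK2i and 246 in EZH2i.

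The targets gave the largest difference of the list. HES1 (chromosome 3, 193853937 to 193856521, plus strand), a repressor that Notch induces directly in many tissues, was at 81.0 FPKM in vehicle, against 418 in CDK2i and 64.6 in EZH2i. These values stand for about 2142, 12613 and 1784 fragments, and the rank of HES1 among all genes was 675, 126 and 858. The CDK2i tumor stood far above the other 2 tumors. The change in CDK2i was 2.37 [2.30 to 2.44], a fold of 5.17, and 0.360% of expressed genes were higher by as much or more. In EZH2i the change was −0.32 [−0.42 to −0.23], short of the threshold.

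HES4 (chromosome 1, 934342 to 935552, minus strand), a further HES family repressor, did not share this pattern. It was at 189 FPKM in vehicle, against 190 in CDK2i and 106 in EZH2i. The vehicle and CDK2i tumors were level within counting error, with a change of 0.006 [−0.067 to 0.080]. In EZH2i the change was −0.83 [−0.92 to −0.74], which became −1.02 less the median gene and 0.22, with the sign turned, after removal of the GC and length trend. The ratio of HES1 to HES4 was 0.427 in vehicle, 2.20 in CDK2i and 0.608 in EZH2i, so that the order of these genes was turned over in the CDK2i tumor. With the GC and length trend removed the ratio was 2.95 in CDK2i. In EZH2i it was then 0.34, below vehicle instead of above. In the promoter stretches printed above, HES1 carries 2 copies of the RBPJ core and HES4 carries 1, and a link of this to their changes was not tested.

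NRARP (chromosome 9, 140194083 to 140196723, minus strand), a feedback inhibitor of the nuclear Notch complex, was at 47.5 FPKM in vehicle, against 78.4 in CDK2i and 44.2 in EZH2i. Like HES1 and NOTCH3 it was highest in CDK2i, but its change of 0.72 [0.65 to 0.80], a fold of 1.65, fell short of the threshold. Of the expressed genes 6.23% were higher by as much or more. In EZH2i the change was −0.10 [−0.19 to −0.02] and turned sign in 2 of 4 other scalings.

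HEY1 (chromosome 8, 80674606 to 80680092, minus strand), a HEY family repressor, stayed below the minimum of 8 FPKM. It was at 3.29 FPKM in vehicle, against 1.23 in CDK2i and 3.03 in EZH2i, on about 122, 52 and 117 fragments. Its direction in CDK2i was opposite to that of HES1, with a change of −1.42 [−1.92 to −0.94]. The EZH2i value differed from vehicle by less than the counting error, with a change of −0.12 [−0.50 to 0.26]. Thus of the 4 targets HES1 and NRARP were higher in CDK2i, HEY1 was lower and HES4 was level under the deposited scaling. The target sum was 321 FPKM in vehicle, against 688 in CDK2i and 218 in EZH2i. HES1 made up 25.2% of this sum in vehicle, 60.8% in CDK2i and 29.6% in EZH2i.

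By level, the order in the vehicle tumor was HES4, JAG1, NOTCH3, HES1, NRARP, NOTCH1, JAG2, NOTCH2, HEY1 and DLL1. No neighbors in this order overlapped in their counting intervals. In CDK2i HES1 moved to the top, before HES4, NOTCH3 and JAG1, and NOTCH1 lay behind JAG2. In EZH2i JAG1 led, before HES4. There NOTCH3 and HES1 overlapped in their counting intervals, as did NOTCH2, JAG2 and NOTCH1, whose values ran from 15.4 to 16.5 FPKM.

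The treated tumors were also set against each other directly, since the inhibitors act on different enzymes and were given for the same 10 days. JAG1 was called higher in EZH2i than in CDK2i, and NOTCH3 and HES1 lower. JAG1 differed by 1.32 [1.28 to 1.35], a fold of 2.49. NOTCH3 differed by −1.40 [−1.43 to −1.37], and was 2.64-fold lower in EZH2i, although with the GC and length trend removed it differed by −0.99. HES1 differed by −2.69 [−2.77 to −2.62], and was 6.47-fold lower in EZH2i. The other 5 genes above the minimum differed by less than 2-fold, from −0.84 for HES4 to 0.92 for NOTCH2. In the background 17.5% of 7394 genes were called higher in EZH2i than in CDK2i, against 1 of the 10 Notch genes, and 6.53% were called lower, against 2. The median difference was 0.05 over the 9 Notch genes and 0.35 over the expressed genes. Less this median, JAG1 differed by 0.97, short of 2-fold, while HES4 and NRARP differed by −1.19 and −1.18, past it. With the GC and length trend removed, HES4 differed by 0.53, with the sign turned, and NRARP by −0.44, short of 2-fold.

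The scaling between the libraries bears on every change near the threshold. With the deposited scaling, higher genes made up 28.9% of the calls for CDK2i and 66.9% of those for EZH2i. Centring every library at its median gene gave 50.9% and 31.8%, and the shares were 46.1% and 88.9% with equal summed FPKM. They were 17.7% and 71.7% with equal sums that leave out ribosomal protein and mitochondrially encoded genes. Under these scalings the median change of expressed genes ran from −0.26 to 0.07 in CDK2i and from −0.06 to 0.43 in EZH2i. In EZH2i the change also ran with the GC content and length of the transcript, with Spearman correlations of −0.583 and 0.491 across 9448 genes, which are not independent replicates. In CDK2i they were 0.0336 and 0.0947. The trend was therefore removed with a polynomial fit as a further setting.

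HES1 in CDK2i passed the fold threshold under each of these settings, with changes from 2.23 to 2.55. NOTCH3 in CDK2i ran from 0.76 to 1.20 and was short of 2-fold with the trend removed and with equal sums without ribosomal protein and mitochondrial genes. NOTCH1 in CDK2i ran from −1.32 to −0.84 and was short of 2-fold after centring and with equal sums. NOTCH2 in EZH2i ran from 0.72 to 1.33, and JAG1 in EZH2i from 0.66 to 1.16, so that JAG1 passed with equal sums and NOTCH2 did not after centring or with the trend removed. NRARP in CDK2i kept its direction, from 0.58 to 0.91, and so did HEY1, from −1.57 to −1.24. NOTCH2, JAG1 and HES1 transcripts have a GC content of 49.4%, 49.6% and 50.0%, while NOTCH1, NOTCH3 and JAG2 have 63.5%, 63.1% and 64.1%, and HES4 has 73.8%. The part of GC content in the EZH2i differences among these genes was tested only by the removal of the trend.

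**Figure D4:**
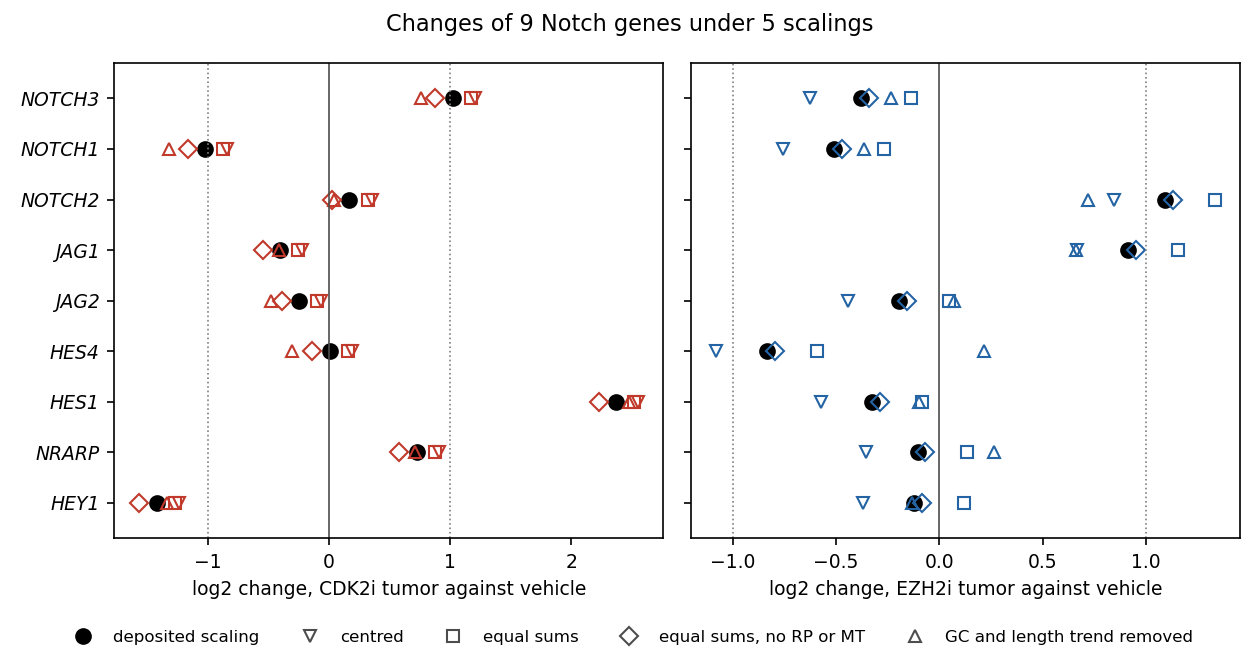
Log2 change (x axes, of different width) of 9 Notch genes in CDK2i and EZH2i against vehicle under the deposited scaling (filled circles) and 4 other settings (open symbols), where RP or MT stands for ribosomal protein and mitochondrially encoded genes and dotted lines mark 2-fold. HES1 in CDK2i stays between 2.23 and 2.55, while HES4 in EZH2i runs from −1.08 to 0.22.

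Other sets of genes moved in the CDK2i tumor beside HES1. Of 10 immediate early genes, which respond within minutes to growth factors and stress, all 10 had a higher level in the CDK2i tumor. The share was 41.9% over all expressed genes. Of the 10, 9 were called higher, against 3.27% of all genes above the minimum. The 10 genes had a median change of 2.97 and the same direction in each scaling tried. Their summed level was 346 FPKM in vehicle, against 3251 in CDK2i and 282 in EZH2i, the order that HES1 also had. Gene by gene the set was split in EZH2i, where 4 were higher than in vehicle and 6 lower. Epithelial markers summed to 5266, 12390 and 4947 FPKM, led by KRT14 at 2458, 6269 and 2541 and KRT5 at 1873, 4217 and 1653. All 8 were higher in CDK2i, with changes from 0.16 for EPCAM to 1.35 for KRT14 under the deposited scaling. The 8 markers stayed higher in each scaling tried, by as little as 0.013 with equal sums without ribosomal protein and mitochondrial genes. The part of either set in the difference of HES1 and NOTCH3 was not tested.

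NOTCH3, JAG1, DLL4 and HEY1 are also known from vessels and their mural cells. The 6 of 8 endothelial markers found in the table summed to 0.952 FPKM in vehicle, against 0.751 in CDK2i and 0.856 in EZH2i, with EMCN listed at 0 in each. The 4 of 7 macrophage markers found summed to 0.310, 0.384 and 0.379 FPKM, with 1, 1 and 2 of them at 0. Both lists were near 0 beside JAG1 and NOTCH3. Host vessels and macrophages are mouse cells, and how many of their fragments align to human genes is not known. The low sums therefore do not measure these cells, and their part in the Notch genes was not tested. The 8 fibroblast and pericyte markers summed to 26.6, 40.3 and 30.6 FPKM, led by COL1A1 at 13.0, 25.1 and 16.1, while the pericyte marker PDGFRB was at 0.146, 0.128 and 0.0899. Against vehicle, 4 of the 8 were higher and 4 lower in CDK2i, and the split was also 4 and 4 in EZH2i. Fragments of mouse stroma that align to human genes cannot be told apart from tumor fragments in this table.

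Beyond the 10 genes, 52 further genes of the pathway were counted by role, all present in the table, of which 37 were expressed. In CDK2i 24 reached the minimum, none was called higher and 2 were called lower, against 3.27% and 8.07% of all genes above the minimum. CIR1, a corepressor that binds RBPJ, was at 21.5 FPKM in vehicle and 8.68 in CDK2i, a change of −1.31 [−1.50 to −1.11]. DTX2, a Deltex ubiquitin ligase, was at 13.5 and 5.07 FPKM, a change of −1.41 [−1.63 to −1.20]. The median change of the 37 expressed genes was −0.01 in CDK2i, with 18 higher and 19 lower.

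In EZH2i 31 of the 52 reached the minimum, 5 were called higher and none lower, against 8.93% and 4.42%. ADAM17, a protease that can cut the receptors, was at 10.4 FPKM in vehicle and 23.5 in EZH2i. POGLUT1, which adds glucose to the receptors, was at 3.96 and 8.90 FPKM. MIB1, a ubiquitin ligase that drives ligand endocytosis, was at 4.26 and 9.90 FPKM. The remaining genes called were SPEN, a corepressor partner of RBPJ, at 6.07 and 13.8 FPKM, and ITCH, a ubiquitin ligase for the receptors, at 5.41 and 12.7 FPKM. The 5 changes lay between 1.17 and 1.23, and none was called with the GC and length trend removed. The median of expressed genes can be taken out in 2 ways, which differ here. Less the median change, MIB1 and ITCH stayed past 2-fold at 1.02 and 1.03. With each library centred on its own median level, none of the 5 was called, and MIB2, a relative of MIB1, was called lower instead, at −1.03 against −0.98 less the median change (64.9 FPKM in vehicle and 37.7 in EZH2i). The median of the 37 expressed genes was 0.13 in EZH2i, with 22 higher and 15 lower, below the 0.19 of all expressed genes.

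In 5 roles the expressed genes all lay on 1 side in at least 1 tumor, and the genes named for this were chosen after their values were seen. For scale, 41.9% of all expressed genes were higher in CDK2i and 61.5% were higher in EZH2i. The expressed genes of the nuclear complex were RBPJ, MAML1, SNW1 and EP300. All 4 were lower in CDK2i, from −0.85 for SNW1 to −0.14 for MAML1, although MAML1 turned to 0.04 after centring and to 0.008 with equal sums. All 4 were higher in EZH2i, from 0.33 for SNW1 to 0.91 for EP300, although RBPJ turned to −0.04 with the trend removed. RBPJ itself was at 8.37 FPKM in vehicle, against 7.11 in CDK2i and 12.1 in EZH2i. None of the 4 passed the threshold against vehicle. The other expressed HES genes HES2, HES6 and HES7 were all lower in EZH2i, with changes of −0.66, −1.30 and −0.70, and stayed below 0 in each scaling, although with the trend removed they lay between −0.52 and −0.03. HES6, at 5.29 FPKM in vehicle and 2.14 in EZH2i, was below the minimum. The cleavage and maturation proteases ADAM10, ADAM17 and FURIN were all 3 higher in both tumors, but 2 of them turned in CDK2i with the trend removed or with equal sums without ribosomal protein and mitochondrial genes, and 1 in EZH2i after centring. The ligand endocytosis genes MIB1, MIB2 and NEURL1B were all 3 higher in CDK2i, from 0.10 to 0.61, and 1 turned in the same settings. NOTCH4 and the ligand-like DLK2 were lower in both tumors, from −0.80 to −0.36, and DLK2 turned to 0.36 in EZH2i with the trend removed. HEYL, a target known from vessel walls, was listed at 0 in vehicle and stood on about 1 fragment in CDK2i and 9 in EZH2i.

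**Figure D5:**
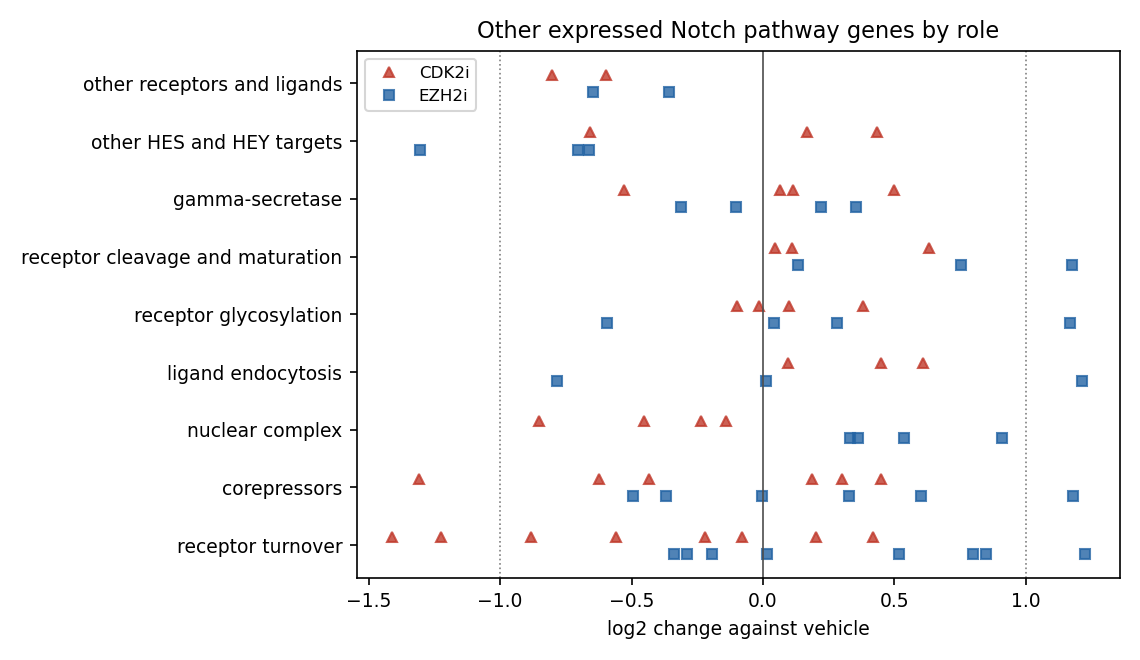
Log2 change against vehicle (x axis) of the 37 expressed further Notch pathway genes by role (y axis) in CDK2i (triangles) and EZH2i (squares), 1 point per gene, with dotted lines at 2-fold. Of the nuclear complex all 4 genes lie below 0 in CDK2i and above 0 in EZH2i under the deposited scaling, with 1 gene turning under centring, equal sums or the removed trend.

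HES1 stood apart within its own family, so the genes nearest to its pair of changes were sought among 1297 genes with a vehicle level within 1 log2 unit. The nearest was SPRR1B, a small proline-rich protein of the cornified envelope, at 40.9 FPKM in vehicle, against 190 in CDK2i and 34.3 in EZH2i. Its distance from HES1, in log2 units over both changes, was 0.17. RNA28S5, the 28S ribosomal RNA, followed at 53.8, 285 and 34.6 FPKM with a distance of 0.31. DDIT4, a stress-induced inhibitor of mTOR signaling, was at 88.0, 323 and 64.0 FPKM with a distance of 0.51. No member of the Notch lists was among the 3 nearest genes. With 3 libraries such likeness rests on 2 changes that share the vehicle library.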

How the data were processed

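RNA was extracted with the RNeasy Mini Kit and sequenced by a service provider, and the submitters' processing notes name CASAVA, STAR and the build hg19 (GRCh37). The counting tool is not given in the sources used here. The authors deposited log2 FPKM per gene symbol for 3 libraries. A value of −9 was read as an FPKM of 0. Column names were matched to the sample labels. The reference library was subtracted from each treated library on the log2 scale, with the fold of 2 and the minimum of log2 FPKM 3 that the study used, and without its limma p-value, which needs replicates. Depth was taken as the value at which most weakly expressed genes fell within 0.3% of 1 to 5 whole fragments (927 to 1063 genes, against 20 to 23 at other depths), with Ensembl canonical transcripts of GENCODE 44 lifted to GRCh37. GC content and length were known for 85.8% of the expressed genes, and their trend was fitted with polynomials of degree 3. Promoters came from RefSeq on GRCh38.p14.

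All 10 members are named. By rule, other pathway genes are named when past the thresholds against vehicle, NOTCH4, DLL4 and HEYL whatever their values, and the 3 genes nearest to HES1 by the Euclidean distance of their changes. Further genes (NOTCH2NL, DLL3, DLK2, MIB2 and the genes of roles that lay on 1 side) were named after their values were seen. Members and lists were chosen with earlier results of these data known. Calls and the removal of the trend were tested on simulated data with changes well past the threshold and little noise. That test does not bear on changes near the threshold. Alternatives were other folds, minimums, pseudocounts (0.1 and 1) and scalings. Python 3.11.15, numpy 2.4.6, pandas 2.3.3 and scipy 1.17.1 were used.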

Additional observations from a re-analysis of the deposited data

How the results depend on the processing

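Of 18 changes of the Notch genes against vehicle, 13 kept their direction under the scalings, pseudocounts and removed trend, and 5 turned (HES4 in both tumors, and JAG2, HEY1 and NRARP in EZH2i). The calls of CDK2i (3 Notch genes) came to 1 at a fold of 3, which was HES1, and to 5 without the minimum, with HEY1 and DLL1 lower. They came to 2 after centring and with equal sums (NOTCH3 and HES1). With equal sums without ribosomal protein and mitochondrial genes, and with the trend removed, they also came to 2 (NOTCH1 and HES1). The call of EZH2i (1 gene) came to 3 at a fold of 1.5, 0 at a fold of 3, 2 without the minimum (DLL1, listed at 0), 0 at a minimum of log2 FPKM 5, 2 with equal sums and 0 with the trend removed. After centring it was HES4, lower, in place of NOTCH2. The 3 calls between EZH2i and CDK2i came to 6 at a fold of 1.5 and 1 at a fold of 3. They came to 4 after centring, where JAG1 was lost and HES4 and NRARP were added as lower. With either form of equal sums they came to 4, with NOTCH2 added as higher. With the trend removed they came to 2, without NOTCH3. Of the further pathway genes, the 2 calls of CDK2i came to 6 at a fold of 1.5, 0 at 3, 11 without the minimum, 4 at a minimum of 1 and 0 at 5. The 5 calls of EZH2i came to 13 at a fold of 1.5, 0 at 3, 13 without the minimum, 0 at a minimum of 5, 1 after centring, which was MIB2, and 0 with the trend removed. The median change of the Notch genes in CDK2i was 0.19 after centring, 0.15 with equal sums, −0.14 with equal sums without ribosomal protein and mitochondrial genes and −0.31 with the trend removed. In EZH2i it was −0.44 after centring, 0.047 with equal sums and 0.073 with the trend removed. Between EZH2i and CDK2i it was −0.38 after centring, 0.14 with equal sums, 0.23 with equal sums without those genes and 0.55 with the trend removed. The cause was not tested. Depth limits DLL1, DLL4 and HEYL, which rest on 52 fragments or fewer in each library. No other scaling is given for the change of DLL1, which is listed at 0 in both treated tumors. No library could be left out and no paired analysis was possible because each group holds 1 library.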
